A study of Homo sapiens with 24 samples.

Results

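The cadherins and the factors of the epithelial-mesenchymal transition were followed through 24 RNA-seq libraries of human renal cells. The set holds 10 of the 60675 genes counted, chosen by name: the cadherin genes CDH1, CDH2 and CDH6, the mesenchymal structural genes VIM and FN1, and the transcription factor genes ZEB1, ZEB2, SNAI1, SNAI2 and TWIST1. All 10 were found by their Ensembl identifier. The libraries came from ACHN, a human renal cancer cell line, and from HK2, an immortalized line of human proximal tubular epithelium. Each line was studied as shNC (control hairpin), shKDM5C, shYY1 and Dsh (double knockdown of KDM5C and YY1) cells, 8 groups of 3 libraries. KDM5C removes methyl groups from lysine 4 of histone H3, and YY1 is a zinc finger transcription factor. The hairpins were delivered by lentivirus, and infected cells were selected with puromycin to make stable lines. Dsh cells were made by infecting YY1-depleted cells with a KDM5C hairpin that also carried a green fluorescent marker. The authors list control hairpin vectors with and without such a marker. Whether the shNC cells of the comparison carried it is not given. Which of the hairpins against each gene was sequenced is not given in the sources used here. No source says that the 3 replicates of a group were separate cultures, so the p-values measure only the spread between these libraries.

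In the epithelial-mesenchymal transition, cells lose the junctions that hold an epithelium together and take on a motile, matrix-producing state. E-cadherin, the product of CDH1, is the main adhesion molecule of most epithelia, and its replacement by N-cadherin (CDH2) is the classic sign of the transition. The ZEB and Snail factors repress CDH1 by binding E-box sequences, and TWIST1 acts beside them. The kidney is unusual among epithelia, because proximal tubule cells normally carry N-cadherin and cadherin-6 (CDH6) rather than E-cadherin, and because they arise from mesenchyme in the embryo.

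RefSeq promoter sequences (GRCh38.p14) were at hand for 5 of the 10 genes, CDH2, VIM, FN1, ZEB1 and ZEB2, which are also the 5 genes that rose in the double knockdown of both lines. The 250 bases before the start were searched on both strands for the E-box CAGGTG, the YY1 core AANATGGC, the cyclic AMP response element TGACGTCA and the GC box GGGCGG. Letters run 5′ to 3′ on the strand of the gene, with the motifs found in capitals. For CDH2 and ZEB2 no stretch is shown, because the window begins within an annotated exon of the gene. The stretches that precede any annotated exon are shown for VIM, FN1 and ZEB1. They cover chr10:17227991-17228240 (plus strand) for VIM, chr2:215436173-215436318 (minus strand) for FN1 and chr10:31318167-31318416 (plus strand) for 1 of the 7 listed starts of ZEB1.
VIM: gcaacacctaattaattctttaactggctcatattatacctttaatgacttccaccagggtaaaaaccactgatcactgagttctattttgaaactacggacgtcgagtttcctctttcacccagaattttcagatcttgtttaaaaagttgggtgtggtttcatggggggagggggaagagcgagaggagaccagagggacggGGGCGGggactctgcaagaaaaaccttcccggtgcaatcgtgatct
FN1: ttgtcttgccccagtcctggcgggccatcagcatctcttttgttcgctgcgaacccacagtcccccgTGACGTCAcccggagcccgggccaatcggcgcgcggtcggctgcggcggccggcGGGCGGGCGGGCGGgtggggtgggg
ZEB1: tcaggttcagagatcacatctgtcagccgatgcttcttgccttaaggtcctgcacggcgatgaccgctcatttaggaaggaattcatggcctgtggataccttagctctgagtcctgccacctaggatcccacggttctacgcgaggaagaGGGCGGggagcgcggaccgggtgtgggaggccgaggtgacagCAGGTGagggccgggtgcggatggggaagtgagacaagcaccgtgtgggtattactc
The window of FN1 held 1 cyclic AMP response element, which 1.65% of 35114 promoters of this length held, and 6 GC boxes, some of them overlapping, of which the stretch shown holds 3. GC boxes occurred in 42.6% of all promoters, and the windows of CDH2, VIM and ZEB1 held 1 each. An E-box was found in the window of ZEB1 (17.5% of all promoters held one). The YY1 core, held by 3.86% of all promoters, was in none of the 5 windows. The matches describe the letters in these windows only.

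CDH1 (ENSG00000039068) lies on chromosome 16 of GRCh38 from 68737225 to 68835548, CDH2 (ENSG00000170558) on chromosome 18 from 27950966 to 28177446, and CDH6 (ENSG00000113361) on chromosome 5 from 31193750 to 31329146. VIM (ENSG00000026025) lies on chromosome 10 from 17228259 to 17237593, and ZEB1 (ENSG00000148516) on the same chromosome from 31318495 to 31529814. FN1 (ENSG00000115414) lies on chromosome 2 from 215360440 to 215436172, and ZEB2 (ENSG00000169554) on the same chromosome from 144384081 to 144524583. SNAI1 (ENSG00000124216) lies on chromosome 20 from 49982999 to 49988886, SNAI2 (ENSG00000019549) on chromosome 8 from 48917690 to 48921740, and TWIST1 (ENSG00000122691) on chromosome 7 from 19020991 to 19117672. Counts cover the exons of each gene, untranslated regions included.

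Between 15926561 and 24272298 read pairs per library were counted on genes. Levels are given as raw counts or as CPM (counts scaled to a common library size with edgeR's TMM factors over all 24 libraries), and the changes are log2 fold changes with their standard error (SE) from edgeR's quasi-likelihood test between the groups compared, with p-values adjusted over all genes tested. KDM5C fell by 0.73 in ACHN shKDM5C, by 0.80 in ACHN Dsh, by 1.74 in HK2 shKDM5C and by 1.49 in HK2 Dsh cells on the log2 scale. YY1 fell by 0.88 in ACHN shYY1, by 0.51 in ACHN Dsh, by 1.70 in HK2 shYY1 and by 1.49 in HK2 Dsh cells. KDM5C rose in ACHN shYY1 cells, by 0.32 to 0.35 when 1 library was left out (edgeR, adjusted p of at most 1.08e-06). HK2 shKDM5C replicate 1 stood apart from its group. Over all genes its counts differed from those of replicates 2 and 3 by chi-square values of 129 and 123 per gene, against 3.20 between replicates 2 and 3 and at most 6.97 within any other group. Except for the correlations given last, the results of the 10 genes that rest on it are therefore given with and without it. KDM5C fell by 1.51 in HK2 shKDM5C cells without it (adjusted p = 1.26e-16), and its call there (adjusted p = 0.0184 with it) was lost when any of the 5 other libraries was left out, with adjusted p of up to 0.151. The kidney tubule markers PAX8, PAX2, SLC5A2 and GGT1 had a mean of at least 1 CPM in each line, and 19 of 26 epithelial genes did so. No endothelial marker of 7 reached that level in either line. Of 8 leukocyte markers none did so in ACHN and 2 (CD14 and CSF1R) in HK2 cells. Of 8 fibroblast markers, 2 (COL1A1 and PDGFRB) did so in ACHN and 3 (LUM, DCN and COL1A1) in HK2 cells, and their summed level ran from 74.4 to 634 CPM over the ACHN and from 29.6 to 102 CPM over the HK2 libraries. Whether they have a part in the changes below was not tested.

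The first comparison was between the control cells of both lines. Of the 10 genes, 9 differed between ACHN and HK2 shNC cells, 5 higher and 4 lower in ACHN, where 76.6% of the 16988 genes tested differed (38.6% higher and 38.0% lower). CDH6 and TWIST1 are among those lower in ACHN. Both passed the filter on low counts through HK2 alone, so their calls are not read as evidence. Of the cadherins, CDH1 and CDH6 differed in opposite directions. ACHN shNC cells had 47.7 ± 2.36 CPM of CDH1 (SD, n = 3) and HK2 shNC cells 1.33 ± 0.593 CPM (SD, n = 3), a log2 difference of 5.18 (SE 0.139, adjusted p = 1.08e-22). In bulk RNA such as this, fewer cells of a type and less RNA per cell cannot be told apart. CDH6 was the reverse, with 13, 2 and 4 counts in the ACHN and 10759, 10646 and 11508 counts in the HK2 shNC libraries, a log2 difference of -10.75 (SE 0.0957). With so few ACHN counts its size is uncertain, and it ran from -11.77 to -10.33 when 1 library was left out. CDH2 had 169.5 ± 0.533 CPM in ACHN and 173 ± 2.68 CPM in HK2 shNC cells (SD, n = 3), and this difference of -0.02 (SE 0.0361) did not pass the test (adjusted p = 0.571). With total counts in place of TMM factors it was -0.08 and passed (adjusted p = 0.0457). E-cadherin RNA was thus high in ACHN and cadherin-6 RNA in HK2 cells.

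The TWIST genes were also split between the lines. TWIST1, a basic helix-loop-helix factor, had 347, 364 and 378 counts in the HK2 shNC libraries and 0 counts in all 12 ACHN libraries. Taking 3 counts per library as the limit that a count of 0 allows (0.159 CPM on average in ACHN shNC), TWIST1 was at least 123-fold higher in HK2 shNC cells. Its close relative TWIST2 was at 9.64 ± 1.19 CPM (SD, n = 3) in ACHN shNC cells and had 0 counts in all 12 HK2 libraries. SNAI1 was lower in ACHN than in HK2 shNC cells by a log2 difference of -0.95 (SE 0.127, adjusted p = 1.53e-07), and FN1 by -1.38 (SE 0.0287, adjusted p = 3.36e-25). Higher in ACHN were SNAI2 by 2.44 (SE 0.180), ZEB2 by 1.58 (SE 0.0691), VIM by 0.65 (SE 0.0328) and ZEB1 by 0.40 (SE 0.0834), all with adjusted p of at most 1.04e-04. At 1.5 or more in size stood CDH1, CDH6, ZEB2, SNAI2 and TWIST1, 5 of 10 genes beside 21.3% of all genes. For CDH6 and TWIST1, which entered the test through HK2 alone, a large value was to be had in advance. The lines are separate derivations, so the difference between them cannot be told apart from any other way in which the lines differ.

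To set the genes against each other, CPM was divided by exon length. The length takes in all annotated exons, from 1686 bases for SNAI1 to 21963 for ZEB2. Which transcripts were expressed was not determined, so the order depends on these lengths. In ACHN shNC cells FN1 (194 CPM per kb) and VIM (136) led, followed by CDH2 (34.3), CDH1 (7.72), SNAI1 (4.33), SNAI2 (3.89), ZEB1 (3.18), ZEB2 (2.47), CDH6 (0.0269) and TWIST1 (0). Only SNAI1 and SNAI2 overlapped among neighbours in this order. In HK2 shNC cells the order was FN1 (507 CPM per kb), VIM (87.1), CDH6 (47.9), CDH2 (34.99), TWIST1 (9.64), SNAI1 (8.41), ZEB1 (2.43), ZEB2 (0.829), SNAI2 (0.720) and CDH1 (0.215), with an overlap between the libraries of ZEB2 and SNAI2 only. By this measure CDH1 was the fourth of the 10 genes in ACHN cells and the lowest in HK2 cells.

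**Figure D1:**
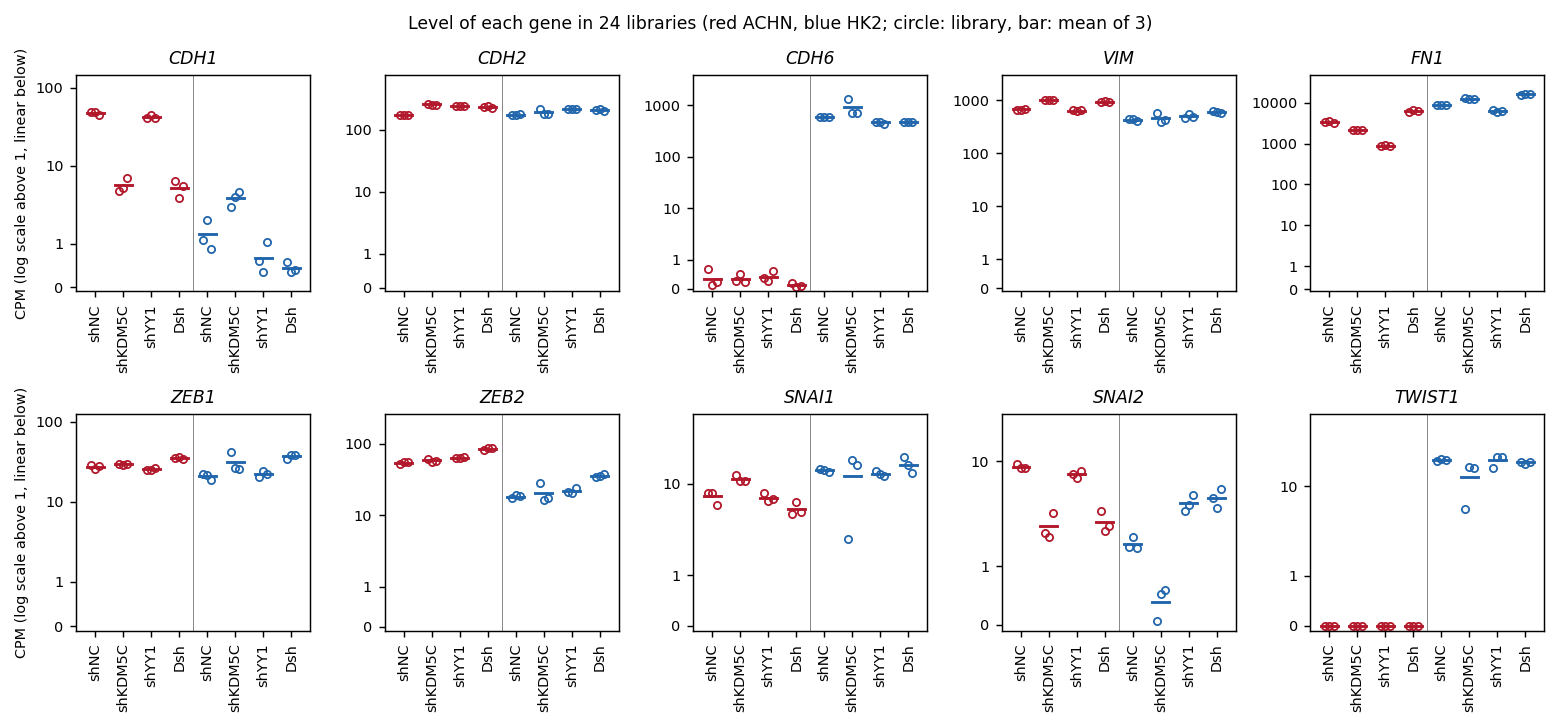
Level of each of the 10 genes in every library, in CPM (log scale above 1, linear below), by group, with ACHN in red and HK2 in blue; circles are libraries and bars the mean of 3. CDH1 drops from about 48 to about 5 CPM in ACHN shKDM5C and Dsh cells, TWIST1 stays at 0 in ACHN, and replicate 1 of HK2 shKDM5C lies away from its group for CDH6, SNAI1 and TWIST1.

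CDH1 fell when KDM5C was knocked down in ACHN cells, alone or with YY1. The ACHN libraries held 950, 906 and 837 counts of CDH1 in shNC, 88, 93 and 128 in shKDM5C, 776, 828 and 733 in shYY1 and 123, 71 and 137 in Dsh cells. The shKDM5C and Dsh libraries lay far below all others and overlapped each other, while the shYY1 libraries lay just under shNC. CDH1 was 8.56-fold lower in shKDM5C (log2 fold change -3.10, SE 0.0938, adjusted p = 2.45e-19) and 8.97-fold lower in Dsh cells (-3.16, SE 0.111, adjusted p = 2.32e-14). In shYY1 cells it fell by 0.20 on the log2 scale (SE 0.0551, adjusted p = 0.00265). The change in Dsh cells differed from the sum of the single changes by 0.11 (SE 0.173, adjusted p = 0.609), which did not pass the test.

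In HK2 cells CDH1 was near the lower end of detection. The HK2 libraries held 20, 36 and 17 counts in shNC, 43, 76 and 85 in shKDM5C, 10, 6 and 18 in shYY1 and 10, 6 and 7 in Dsh cells. All 3 shKDM5C libraries lay above shNC and all 3 Dsh libraries below it, whereas shYY1 and shNC overlapped. The log2 fold change was 1.55 in shKDM5C cells (SE 0.363, adjusted p = 0.117) and 1.70 without replicate 1 (SE 0.316, adjusted p = 2.64e-04), where it passed the test. It was -0.98 in shYY1 cells (SE 0.471, adjusted p = 0.126), which did not pass. CDH1 fell by 1.55 in Dsh cells (SE 0.487, adjusted p = 0.00893), a call that was lost without shNC replicate 2 (-1.13, adjusted p = 0.111). The shKDM5C effect on CDH1 differed between the lines by a log2 value of -4.65 (SE 0.353, adjusted p = 1.05e-05), and by -4.79 without HK2 shKDM5C replicate 1 (adjusted p = 6.37e-15).

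CDH2 rose in every ACHN knockdown, by a smaller amount and with little spread. Its level was 169.5 ± 0.533 CPM in shNC, 255 ± 2.52 in shKDM5C, 239.6 ± 3.33 in shYY1 and 229.9 ± 8.80 in Dsh cells (SD, n = 3), and no knockdown library overlapped shNC. The log2 fold changes were 0.57 (SE 0.0316, adjusted p = 4.98e-14), 0.48 (SE 0.0306, adjusted p = 4.51e-15) and 0.44 (SE 0.0444, adjusted p = 6.77e-08). The rise in Dsh cells was smaller than the sum of the single rises, with an interaction of -0.63 (SE 0.0517, adjusted p = 1.22e-10). In HK2 cells the libraries had 170.5, 173 and 176 CPM in shNC, 213, 213 and 214 in shYY1 and 208, 212 and 201 in Dsh cells. CDH2 rose by 0.30 in HK2 shYY1 (SE 0.0472, adjusted p = 3.79e-05) and by 0.27 in HK2 Dsh cells (SE 0.0452, adjusted p = 1.02e-05). In HK2 shKDM5C cells it had 217, 179.8 and 181 CPM, a change of 0.17 (SE 0.128, adjusted p = 0.511) and of 0.06 without replicate 1 (SE 0.0448, adjusted p = 0.424).

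CDH6, the tubular and embryonic kidney cadherin, had between 1 and 13 counts in each of the 12 ACHN libraries and was not tested in the knockdowns of that line. In HK2 cells it had 593, 591 and 594 CPM in shNC, 479, 469 and 437 in shYY1 and 459.7, 469 and 459 in Dsh cells, with no overlap with shNC. It fell by 0.36 in shYY1 (SE 0.0449, adjusted p = 2.14e-06) and by 0.35 in Dsh cells (SE 0.0381, adjusted p = 4.74e-09). Its level was 1298, 701 and 699 CPM in the HK2 shKDM5C libraries. The change was 0.63 with replicate 1 (SE 0.262, adjusted p = 0.318) and 0.24 without it (SE 0.0337, adjusted p = 9.13e-06), and only the latter passed the test.

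The balance of E- to N-cadherin was taken within each library as the log2 ratio of CDH1 to CDH2 counts per kb, with 0.5 counts added to each. In the ACHN libraries it was -2.10, -2.12 and -2.23 in shNC, -6.08, -5.92 and -5.50 in shKDM5C, -2.85, -2.77 and -2.86 in shYY1 and -5.50, -6.24 and -5.63 in Dsh cells. In terms of RNA per kb, CDH2 stood at 4.44 times CDH1 in ACHN shNC cells, at 7.10 times in shYY1, at 57.1 times in shKDM5C and at 55.3 times in Dsh cells. In HK2 cells the ratio was 170 times in shNC, 62.8 times in shKDM5C, 419 times in shYY1 and 557 times in Dsh cells. The HK2 shKDM5C libraries had a balance of -6.50, -5.81 and -5.60, a mean of -5.97 and of -5.71 without replicate 1, and the ACHN libraries with the KDM5C hairpin overlapped them. With 5 counts added, the mean of HK2 Dsh moved from -9.12 to -8.47, since its CDH1 counts were few. N-cadherin RNA exceeded E-cadherin RNA per kb in all 24 libraries.

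**Figure D2:**
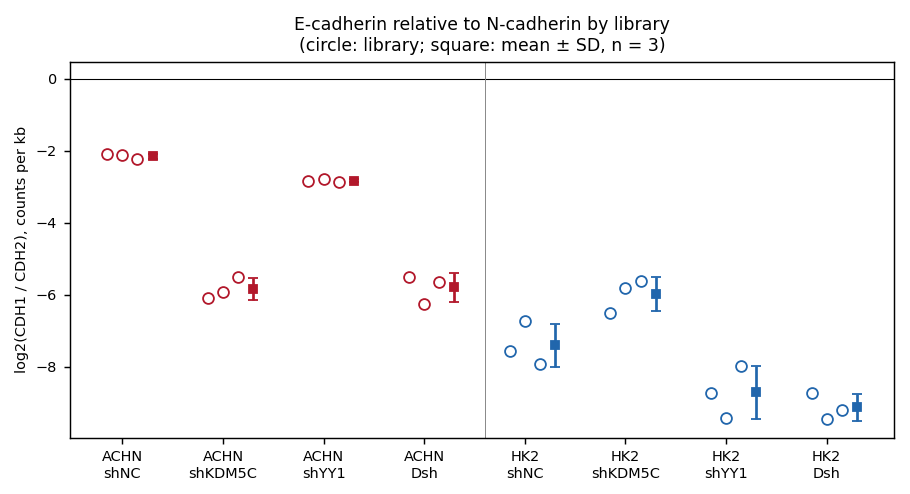
Log2 ratio of CDH1 to CDH2 counts per kb in each library; circles are libraries and squares the mean ± SD of 3. The ACHN shKDM5C (-5.84) and Dsh (-5.79) means lie far below ACHN shNC (-2.15), and in HK2 the shKDM5C mean (-5.97) lies above shNC (-7.41).

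VIM, which encodes the intermediate filament vimentin, followed the KDM5C hairpin in ACHN cells. Its libraries had 669.7, 666 and 691 CPM in shNC, 1025, 1010.4 and 1026 in shKDM5C, 644, 627 and 649 in shYY1 and 916, 957 and 938 in Dsh cells. VIM rose by 0.58 in shKDM5C (SE 0.0270, adjusted p = 1.73e-15) and by 0.47 in Dsh cells (SE 0.0400, adjusted p = 6.20e-09), and fell by 0.10 in shYY1 cells (SE 0.0259, adjusted p = 0.00144). In HK2 cells it had 438, 446 and 414 CPM in shNC, 569, 384 and 419 in shKDM5C, 460.3, 549 and 482 in shYY1 and 624, 596 and 567 in Dsh cells. The rise in HK2 Dsh cells was 0.47 (SE 0.0427, adjusted p = 9.65e-11). The rise of 0.20 in HK2 shYY1 cells (SE 0.0554, adjusted p = 0.00824) was lost without shNC replicate 3 (0.17, adjusted p = 0.0612) or without shYY1 replicate 2 (0.12, adjusted p = 0.0755). The HK2 shKDM5C change was 0.10 with replicate 1 (adjusted p = 0.771) and -0.11 without it (adjusted p = 0.0663). The exons of VIM share 641 bases with the antisense gene VIM-AS1, to which 8 to 39 read pairs per library were assigned.

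FN1, which encodes the matrix protein fibronectin, was the gene of the set for which the ACHN double knockdown departed furthest from the sum of the single ones. It had 3284, 3529 and 3239 CPM in shNC, 2106, 2108 and 2093 in shKDM5C, 851, 917 and 860.3 in shYY1 and 5930.0, 6459 and 6155 in Dsh cells. Each single knockdown lay below shNC and the double knockdown above it, with no overlap between any groups. The log2 fold change was -0.69 in shKDM5C (SE 0.0277, adjusted p = 9.69e-17), -1.96 in shYY1 (SE 0.0293, adjusted p = 5.90e-33) and 0.89 in Dsh cells (SE 0.0415, adjusted p = 1.42e-12). The interaction was 3.51 (SE 0.0519, adjusted p = 2.48e-25).

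The same order of shYY1 below shNC below Dsh was seen for FN1 in HK2 cells. The libraries had 8571, 8952 and 8795 CPM in shNC, 12773, 12048 and 12171 in shKDM5C, 6469, 5959.6 and 6200.2 in shYY1 and 15707, 15931 and 16146 in Dsh cells, again with no overlap between groups. FN1 fell by 0.50 in shYY1 (SE 0.0346, adjusted p = 3.72e-10) and rose by 0.87 in Dsh cells (SE 0.0272, adjusted p = 9.90e-22). In shKDM5C cells the change was 0.51 (SE 0.0934, adjusted p = 0.0567), and 0.46 without replicate 1 (SE 0.0224, adjusted p = 1.62e-13). The interaction was 0.86 (SE 0.0959, adjusted p = 2.20e-04), and 0.92 without HK2 shKDM5C replicate 1 (adjusted p = 2.40e-15). The shKDM5C effect on FN1 was lower in ACHN than in HK2 cells by -1.18 (SE 0.0870, adjusted p = 8.06e-06) and the shYY1 effect by -1.45 (SE 0.0505, adjusted p = 3.49e-19). The Dsh effects differed by 0.04 (SE 0.0495, adjusted p = 0.595), which did not pass the test.

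ZEB1 and ZEB2 encode zinc finger and homeobox repressors of CDH1. Both rose in the double knockdown of both lines. In ACHN cells ZEB1 had 28.8, 25.7 and 28.1 CPM in shNC and 35.4, 36.6 and 34.9 in Dsh cells, and ZEB2 had 51.8, 56.2 and 55.1 CPM in shNC and 81.6, 87.2 and 86.9 in Dsh cells. The Dsh libraries of both genes were above all shNC libraries. ZEB1 rose by 0.38 (SE 0.0705, adjusted p = 1.35e-04) and ZEB2 by 0.65 (SE 0.0544, adjusted p = 5.38e-09) in ACHN Dsh cells. In the single knockdowns ZEB1 changed by 0.09 in shKDM5C (adjusted p = 0.272) and -0.14 in shYY1 cells (adjusted p = 0.0786), neither of which passed, and ZEB2 by 0.10 in shKDM5C (adjusted p = 0.110), which did not pass, and 0.21 in shYY1 cells (SE 0.0476, adjusted p = 3.78e-04), which did. ZEB2 passed in shKDM5C cells without shKDM5C replicate 2 (adjusted p = 0.0435) and ZEB1 in shYY1 cells without shNC replicate 2 (0.0287). The interaction was 0.40 for ZEB1 (SE 0.0905, adjusted p = 5.19e-04) and 0.32 for ZEB2 (SE 0.0705, adjusted p = 3.72e-04).

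In HK2 cells the rise of both ZEB genes in the double knockdown was larger. ZEB1 had 22.4, 21.6 and 19.0 CPM in shNC and 34.7, 38.3 and 39.1 in Dsh cells, a log2 fold change of 0.84 (SE 0.0883, adjusted p = 1.97e-09). ZEB2 had 17.2, 19.0 and 18.5 CPM in shNC and 34.4, 34.9 and 37.8 in Dsh cells, a log2 fold change of 0.98 (SE 0.0882, adjusted p = 7.55e-11). The Dsh effect was larger in HK2 than in ACHN cells for both, with a difference of -0.45 for ZEB1 (SE 0.113, adjusted p = 0.00165) and -0.31 for ZEB2 (SE 0.0944, adjusted p = 0.00791). In HK2 shYY1 cells ZEB1 changed by 0.09 (adjusted p = 0.557) and ZEB2 by 0.26 (adjusted p = 0.0579), neither of which passed, ZEB2 doing so only without shYY1 replicate 2 (0.0406). With the KDM5C hairpin alone, ZEB1 had 42.2, 26.8 and 25.9 CPM and ZEB2 28.3, 16.2 and 17.3 CPM, with replicate 1 the highest for both. ZEB1 changed there by 0.61 (adjusted p = 0.284) and by 0.32 without replicate 1 (adjusted p = 0.0225), ZEB2 by 0.20 (adjusted p = 0.683) and by -0.13 without it (adjusted p = 0.478). ZEB1 shares 366 exon bases with ZEB1-AS1, which had 7 to 103 counts per library, and ZEB2 shares 842 with ZEB2-AS1, which had 0 to 4. Reads of these antisense pairs cannot be separated, because strand was not used.

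SNAI1 and SNAI2 encode Snail and Slug, zinc finger repressors that bind the same E-box sequences. SNAI2 fell with the KDM5C hairpin in ACHN cells. Its libraries held 180, 160 and 161 counts in shNC, 39, 34 and 59 in shKDM5C, 141, 128 and 145 in shYY1 and 66, 39 and 59 in Dsh cells, where shKDM5C and Dsh overlapped each other and no other group. It was 3.73-fold lower in shKDM5C (log2 fold change -1.90, SE 0.166, adjusted p = 3.86e-10) and 3.35-fold lower in Dsh cells (-1.74, SE 0.167, adjusted p = 3.68e-08). The fall of 0.27 in shYY1 cells (SE 0.114, adjusted p = 0.0478) lay at the threshold. It was lost when any shNC library was left out (adjusted p of 0.166, 0.0650 and 0.0705 without shNC replicates 1, 2 and 3) or shYY1 replicate 1 (0.0936) or 2 (0.175), and with DESeq2 (0.138).

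In HK2 cells SNAI2 was scarce and moved the other way after YY1 loss. Its libraries held 28, 34 and 29 counts in shNC, 1, 10 and 11 in shKDM5C, 57, 64 and 83 in shYY1 and 76, 62 and 95 in Dsh cells. All shYY1 and Dsh libraries lay above shNC and all shKDM5C libraries below it. SNAI2 rose by 1.28 in shYY1 (SE 0.263, adjusted p = 7.05e-04) and by 1.46 in Dsh cells (SE 0.260, adjusted p = 2.12e-05). The shKDM5C change was -1.97 (SE 0.561, adjusted p = 0.185), and -1.54 without replicate 1 (SE 0.470, adjusted p = 0.0187). The Dsh effect was lower in ACHN than in HK2 cells by -3.19 (SE 0.291, adjusted p = 3.21e-10), and the shYY1 effect by -1.54 (SE 0.243, adjusted p = 9.92e-06). The HK2 interaction was 2.13 (SE 0.529, adjusted p = 0.0243) and 1.73 without HK2 shKDM5C replicate 1 (adjusted p = 0.00316). Leaving out 1 of 7 other libraries (any shNC replicate, shYY1 replicate 1 or 2, Dsh replicate 1 or 3) put its adjusted p above 0.05, at up to 0.0661.

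SNAI1 passed the test in the knockdowns of ACHN cells only. It had 7.96, 8.06 and 5.91 CPM in shNC, 12.7, 10.8 and 10.8 in shKDM5C, 7.90, 6.44 and 6.79 in shYY1 and 4.72, 6.29 and 4.95 in Dsh cells. The shKDM5C libraries lay above all others. SNAI1 rose by 0.63 in shKDM5C cells (SE 0.122, adjusted p = 9.45e-05), did not pass in shYY1 cells (-0.08, SE 0.132, adjusted p = 0.666) and fell by 0.46 in Dsh cells (SE 0.159, adjusted p = 0.0166), with an interaction of -1.04 (SE 0.197, adjusted p = 7.34e-05). The fall in Dsh cells was lost without shNC replicate 1 (adjusted p = 0.0721), shNC replicate 2 (0.0779) or Dsh replicate 3 (0.0601). In HK2 cells SNAI1 had 14.6, 14.3 and 13.6 CPM in shNC, 13.8, 12.7 and 12.2 in shYY1 and 19.6, 15.99 and 13.3 in Dsh cells, with changes of -0.14 (adjusted p = 0.419) and 0.21 (adjusted p = 0.172) that did not pass. The Dsh change was 0.34 and passed without Dsh replicate 3 (adjusted p = 0.0242). The HK2 shKDM5C libraries had 2.46, 18.3 and 16.1 CPM of SNAI1, so replicate 1 lay below and the other 2 above shNC. The change was -0.20 with replicate 1 (adjusted p = 0.868) and 0.27 without it (adjusted p = 0.103).

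TWIST1 could be followed in HK2 cells only. It had 19.1, 20.2 and 19.5 CPM in shNC, 5.61, 16.5 and 16.02 in shKDM5C, 15.8, 21.3 and 21.1 in shYY1 and 18.7, 17.8 and 18.5 in Dsh cells. No change passed the test: -0.61 in shKDM5C (SE 0.353, adjusted p = 0.427), -0.28 in shKDM5C without replicate 1 (SE 0.109, adjusted p = 0.0745), -0.02 in shYY1 (SE 0.113, adjusted p = 0.937) and -0.09 in Dsh cells (SE 0.0995, adjusted p = 0.493). No knockdown brought a read of TWIST1 into any ACHN library.

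**Figure D3:**
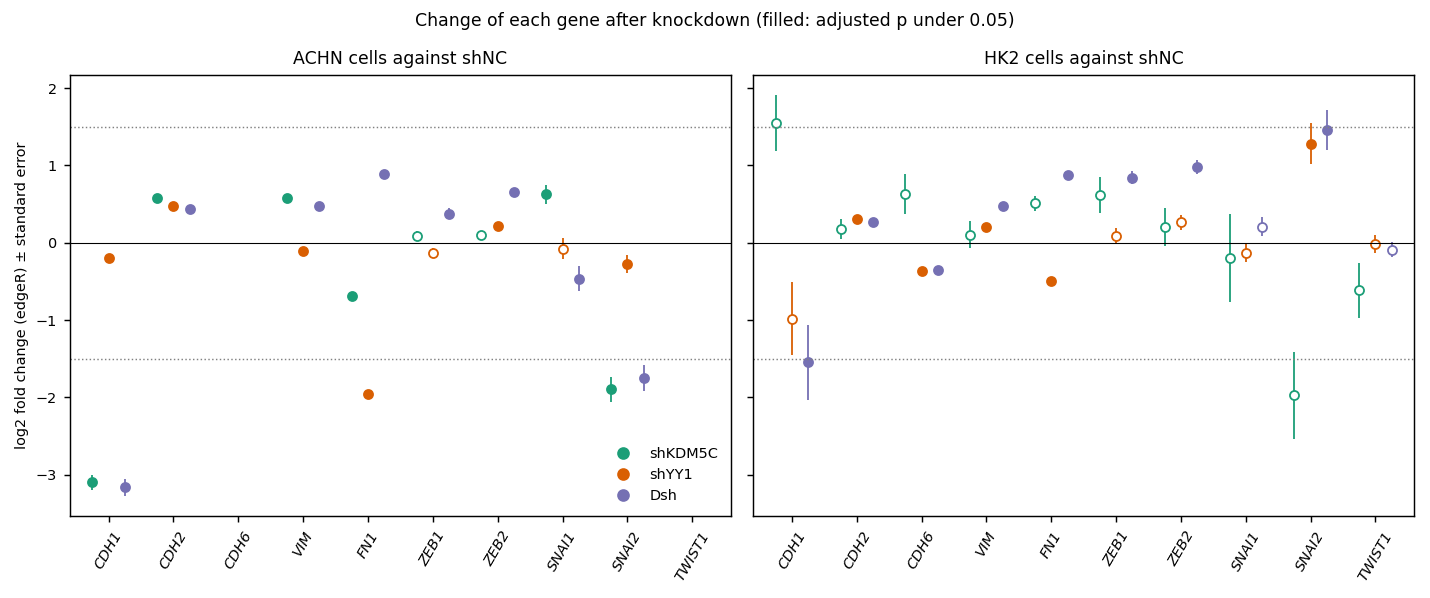
Log2 fold change against shNC of the 10 genes (edgeR, ± SE) in shKDM5C, shYY1 and Dsh cells of each line; filled points passed an adjusted p of 0.05 and dotted lines mark 1.5, with CDH6 and TWIST1 not tested in ACHN. CDH1 (-3.10 and -3.16) lies lowest in ACHN shKDM5C and Dsh cells and FN1 (-1.96) in ACHN shYY1 cells, and SNAI2 rises in HK2 shYY1 and Dsh cells.

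Counted over the set, 8 of the 10 genes passed the filter on low counts in the ACHN and all 10 in the HK2 knockdowns. In ACHN shKDM5C cells 3 rose and 3 fell of 8, where 56.6% of all genes tested were called (28.9% higher and 27.7% lower). In ACHN shYY1 cells 2 rose and 4 fell of 8, beside 48.7% of all genes (24.2% higher and 24.5% lower). In ACHN Dsh cells 5 rose and 3 fell of 8, beside 62.6% of all genes (30.7% higher and 32.0% lower). None of 10 was called by edgeR in HK2 shKDM5C cells, where 1.32% of all genes were (0.668% higher and 0.656% lower), whereas 5 had an unadjusted p under 0.05 and DESeq2 called 3. Without replicate 1, 4 rose and 1 fell, beside 22.3% of all genes. In HK2 shYY1 cells 3 rose and 2 fell of 10, beside 29.1% of all genes (14.3% higher and 14.7% lower), and in HK2 Dsh cells 6 rose and 2 fell, beside 49.8% (25.5% higher and 24.3% lower). With so many genes called, the numbers called describe the set and are not read as particular to it. The size of 1.5 on the log2 scale was reached as well by CDH1 and SNAI2 in ACHN shKDM5C (3.34% of all genes) and ACHN Dsh cells (8.42%), by FN1 in ACHN shYY1 (3.13%), by CDH1 in HK2 Dsh cells (4.30%), and by none in HK2 shKDM5C (0.501%) or HK2 shYY1 cells (1.29%). Over the genes of the set that were tested, log2 fold changes had a median of 0.09, -0.12 and 0.41 in ACHN shKDM5C, shYY1 and Dsh cells and of 0.19, 0.04 and 0.37 in HK2 cells, beside medians over all genes between -0.01 and 0.01. The 3 comparisons of a line share its shNC libraries.

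The double knockdown was then set against the sum of the single knockdowns, on the log2 scale, with all 12 libraries of a line. In ACHN cells YY1 fell less in Dsh than in shYY1 cells, and KDM5C rose in shYY1 cells, as given above. In HK2 cells YY1 fell less in Dsh than in shYY1 cells. KDM5C also fell less in HK2 Dsh than in HK2 shKDM5C cells, though the falls were closer in size without shKDM5C replicate 1. The single and double knockdowns were thus not equal in depletion, and the part of this in the departures was not tested. In ACHN cells 5 of 8 genes departed from the sum, FN1, ZEB1 and ZEB2 upward and CDH2 and SNAI1 downward, where 55.6% of all genes did so (26.8% upward and 28.8% downward). VIM (-0.03, SE 0.0450), CDH1 (0.11) and SNAI2 (0.40, SE 0.256) did not pass, although SNAI2 did without ACHN shKDM5C replicate 3 (0.67, adjusted p = 0.0332). Only FN1 reached 1.5 in size, beside 10.2% of all genes. In HK2 cells FN1 and SNAI2 departed upward, 2 of 10 genes, beside 9.61% of all genes (5.21% upward and 4.40% downward), and only SNAI2 reached 1.5, beside 2.10%. Without HK2 shKDM5C replicate 1, 7 of 10 passed, beside 28.7% of all genes. These were FN1 and SNAI2 with VIM (0.39, adjusted p = 5.00e-04), ZEB1 (0.43, adjusted p = 0.0170) and ZEB2 (0.85, adjusted p = 2.52e-05) upward and CDH1 (-2.25, adjusted p = 0.00733) and CDH6 (-0.22, adjusted p = 0.00633) downward. With that library, CDH1 was at -2.12 (SE 0.623, adjusted p = 0.0506), ZEB2 at 0.52 (adjusted p = 0.244), VIM at 0.17 (adjusted p = 0.642), ZEB1 at 0.14 (adjusted p = 0.777) and CDH6 at -0.62 (adjusted p = 0.189). CDH1 also passed without shNC replicate 2 (adjusted p = 0.0337) or shYY1 replicate 2 (0.0407), and with DESeq2 (0.0145), no filter on low counts (0.0257), at least 10 counts in every library of a group (0.0463) and all 24 libraries in the fit (0.00742). CDH6 passed without the filter (-0.58, adjusted p = 0.00939), and ZEB2 with all 24 libraries (0.54, adjusted p = 0.0465).

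**Figure D4:**
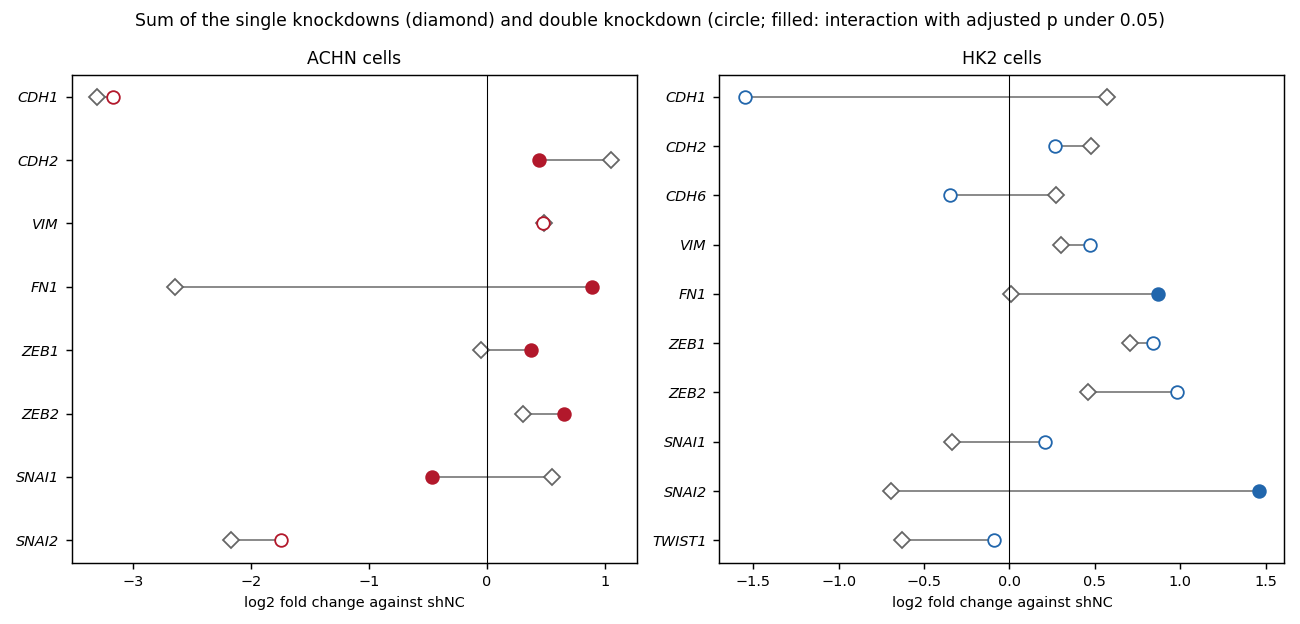
Log2 fold change against shNC in double-knockdown cells (circles, filled where the interaction passed an adjusted p of 0.05) and the sum of the log2 fold changes in the single knockdowns (diamonds), by gene and line, all libraries included. FN1 lies 3.51 above the sum in ACHN and 0.86 above it in HK2, and SNAI2 lies 2.13 above it in HK2.

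The effects of each knockdown were also compared between the lines, with 12 libraries in each fit. CDH6 and TWIST1 passed the filter there through HK2 alone, and no value is given for them. They are among the 10 genes counted below but are not read as genes without a difference. The shKDM5C effect differed for 3 of the 10 genes (11.9% of all genes tested, 5.74% higher and 6.18% lower in ACHN), CDH1 and FN1 lower and CDH2 higher in ACHN, and for 4 without HK2 shKDM5C replicate 1 (33.9% of all genes), with VIM added (0.70, adjusted p = 1.78e-12). The CDH2 difference of 0.41 (SE 0.118, adjusted p = 0.0410) was 0.52 without that library (adjusted p = 1.22e-09). It was lost when any 1 of the other 11 libraries was left out, with adjusted p between 0.0518 and 0.0874. The shYY1 effect differed for 4 genes, CDH2 higher and VIM, FN1 and SNAI2 lower in ACHN, beside 33.1% of all genes (16.6% higher and 16.5% lower). That on CDH1 (0.78, adjusted p = 0.0811) did not pass, but did with DESeq2 (0.81, adjusted p = 0.0403) and without HK2 shNC replicate 3 (1.02, adjusted p = 0.0252) or HK2 shYY1 replicate 3 (1.27, adjusted p = 0.0152). The Dsh effect differed for 6 genes, CDH2 higher and CDH1, ZEB1, ZEB2, SNAI1 and SNAI2 lower in ACHN, beside 46.0% of all genes (23.3% higher and 22.7% lower). A size of 1.5 was reached by CDH1 for shKDM5C (2.95% of all genes), by SNAI2 for shYY1 (4.42%) and by CDH1 and SNAI2 for Dsh (8.88%). The Dsh effect on CDH1 was lower in ACHN by -1.60 (SE 0.465, adjusted p = 0.00540), a call lost without HK2 Dsh replicate 1 (-1.37, adjusted p = 0.0607).

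The remaining genes of cell adhesion and of the transition were read from 5 lists of fixed membership. Among 19 other cadherins, 6 to 7 were tested in ACHN and 5 to 6 in HK2 cells. In ACHN, 3 rose and 2 fell in shKDM5C, 1 rose and 3 fell in shYY1 and 2 rose and 3 fell in Dsh cells, beside 56.6%, 48.7% and 62.6% of all genes called. In HK2, none rose and 1 fell in shKDM5C (1 rose and 3 fell without replicate 1), 3 fell in shYY1 and 4 fell in Dsh cells. None rose in shYY1 or Dsh cells. The shares of all genes called were 1.32% (22.3% without replicate 1), 29.1% and 49.8%. CDH13, the cadherin anchored to the membrane by lipid, dropped from 41.1 ± 1.86 CPM in ACHN shNC to 2.32 ± 0.671 CPM in shYY1 cells (SD, n = 3; log2 fold change -4.16, adjusted p = 2.34e-26). It also fell in ACHN Dsh (-1.14, adjusted p = 2.33e-10) and rose in ACHN shKDM5C cells (0.89, adjusted p = 5.88e-14). CDH10 rose from 0.675 ± 0.172 to 15.9 ± 0.0885 CPM in ACHN Dsh cells (4.55, adjusted p = 5.94e-14). CDH16, the kidney-specific cadherin, fell in ACHN shKDM5C (-1.31, adjusted p = 2.82e-12), ACHN Dsh (-1.70, adjusted p = 2.52e-11) and HK2 shYY1 cells (-0.65, adjusted p = 1.48e-07), and also in ACHN shYY1 (-0.62, adjusted p = 9.82e-09) and HK2 Dsh cells (-0.30, adjusted p = 1.77e-04). The HK2 shKDM5C change of CDH16 was 0.25 (adjusted p = 0.604), and it rose by 0.49 without replicate 1 (adjusted p = 9.02e-07). CDH3, which encodes P-cadherin, fell in HK2 shKDM5C (-1.92, adjusted p = 0.00762), HK2 shYY1 (-0.91, adjusted p = 6.63e-08) and HK2 Dsh cells (-2.08, adjusted p = 9.50e-17). With the KDM5C hairpin its fall was -1.84 without replicate 1 (adjusted p = 7.34e-12) and was lost when 1 of the shNC libraries was left out, with adjusted p of up to 0.0982.

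The catenins and other adherens junction genes, which tie cadherins to actin, were called in both directions. Of 13 listed, 10 to 11 were tested, and 4 rose and 3 fell in ACHN shKDM5C, 4 and 1 in ACHN shYY1, 7 and 1 in ACHN Dsh, 1 and 4 in HK2 shYY1 and 4 and 2 in HK2 Dsh cells. The shares of all genes that rose and fell were 28.9% and 27.7%, 24.2% and 24.5%, 30.7% and 32.0%, 14.3% and 14.7%, and 25.5% and 24.3% in the same order. None was called in HK2 shKDM5C cells, beside 1.32% of all genes, and 3 rose without replicate 1, beside 22.3% of all genes called. CTNNB1, the gene of beta-catenin, rose by 0.29 in ACHN shKDM5C (adjusted p = 1.08e-08) and fell by 0.20 in ACHN shYY1 cells (adjusted p = 6.53e-07). JUP, which encodes plakoglobin, fell by 1.24 in ACHN shKDM5C (adjusted p = 2.69e-15) and rose by 0.64 in ACHN Dsh cells (adjusted p = 3.34e-09).

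Of 18 further transcription factors linked to the transition, 13 were tested in ACHN cells. There 6 rose and 4 fell in shKDM5C, 5 and 2 in shYY1 and 8 and 3 in Dsh cells, beside 56.6%, 48.7% and 62.6% of all genes called. In HK2 cells 11 to 12 were tested, with 2 rising and 2 falling in shYY1 and 4 and 4 in Dsh cells, none called in shKDM5C, and 1 rising and 5 falling there without replicate 1. Of all genes, 29.1%, 49.8% and 1.32% were called in shYY1, Dsh and shKDM5C cells, and 22.3% in the last without replicate 1. HMGA2, a chromatin protein that acts upstream of the Snail genes, rose from 43.1 ± 3.31 to 386 ± 14.1 CPM in ACHN Dsh (SD, n = 3; log2 fold change 3.17, adjusted p = 1.93e-18) and from 185 ± 6.71 to 907 ± 27.2 CPM in HK2 Dsh cells (2.30, adjusted p = 3.17e-27). FOXC2 rose in ACHN shKDM5C (2.91, adjusted p = 9.65e-13) and ACHN Dsh cells (2.63, adjusted p = 1.62e-09). SOX9 fell in HK2 shYY1 (-0.77, adjusted p = 5.67e-06) and HK2 Dsh cells (-1.23, adjusted p = 1.54e-10).

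Among 26 epithelial genes, 19 to 20 were tested in each knockdown. In ACHN shKDM5C cells 2 rose and 8 fell, beside 28.9% and 27.7% of all genes. In ACHN shYY1 cells 5 rose and 7 fell, beside 24.2% and 24.5% of all genes. In ACHN Dsh cells 1 rose and 16 fell of 20, beside 30.7% and 32.0% of all genes. The median log2 fold change there was -0.66, beside -0.01 over all genes. In HK2 shKDM5C cells none rose and 1 fell (2 and 8 without replicate 1), beside 1.32% of all genes called (22.3% without it). In HK2 shYY1 cells 2 rose and 7 fell, beside 14.3% and 14.7% of all genes. In HK2 Dsh cells 5 rose and 10 fell of 20, with a median of -0.41, beside 25.5% and 24.3% of all genes. CD24, which encodes a surface glycoprotein, fell from 2198 ± 31.2 to 489 ± 25.6 CPM in ACHN Dsh (SD, n = 3; -2.17, adjusted p = 1.11e-17) and from 1017 ± 12.4 to 296 ± 3.53 CPM in HK2 Dsh cells (-1.77, adjusted p = 1.73e-25). PRSS8, the gene of the protease prostasin, fell in ACHN Dsh (-2.88, adjusted p = 2.41e-10) and rose in HK2 Dsh cells (1.78, adjusted p = 4.08e-16). EPCAM fell in ACHN shYY1 (-1.16, adjusted p = 9.29e-14) and HK2 shKDM5C cells (-0.97, adjusted p = 0.0172, and -1.02 without replicate 1, adjusted p = 1.74e-10). The latter call was lost when any other library of the comparison was left out, with adjusted p of up to 0.16.

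Among 30 mesenchymal genes, 24 to 25 were tested. In ACHN shKDM5C cells 7 rose and 13 fell, beside 28.9% and 27.7% of all genes. In ACHN shYY1 cells 13 rose and 8 fell, beside 24.2% and 24.5%, and in ACHN Dsh cells 11 and 11, beside 30.7% and 32.0%. In HK2 shKDM5C cells 1 rose and 1 fell (3 and 13 without replicate 1), beside 1.32% of all genes called (22.3% without it). In HK2 shYY1 cells 8 rose and 8 fell, beside 14.3% and 14.7% of all genes. In HK2 Dsh cells 13 rose and 6 fell, with a median of 0.53, beside 25.5% and 24.3% of all genes. The members of the list moved apart from each other. COL1A1, the gene of a fibrillar collagen chain, fell from 581 ± 27.3 to 49.4 ± 2.68 CPM in ACHN shKDM5C cells (SD, n = 3; -3.57, adjusted p = 7.55e-28), in which CD44 rose from 257 ± 6.15 to 629.9 ± 10.4 CPM (1.28, adjusted p = 1.07e-21). In ACHN Dsh cells NT5E (2.51, adjusted p = 1.24e-17) and the integrin gene ITGB3 (2.47, adjusted p = 9.41e-15) rose, while S100A4 (-3.75, adjusted p = 2.94e-12) and TAGLN, an actin-binding protein gene (-2.26, adjusted p = 2.17e-12), fell. In HK2 Dsh cells the matrix proteoglycan genes LUM and DCN rose, LUM from 10.5 ± 1.43 to 60.9 ± 4.01 CPM (2.55, adjusted p = 4.21e-20) and DCN from 0.145 ± 0.171 to 7.22 ± 0.620 CPM (SD, n = 3), while THBS1 (-2.45, adjusted p = 3.17e-27) and TAGLN (-2.02, adjusted p = 1.49e-18) fell.

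**Figure D5:**
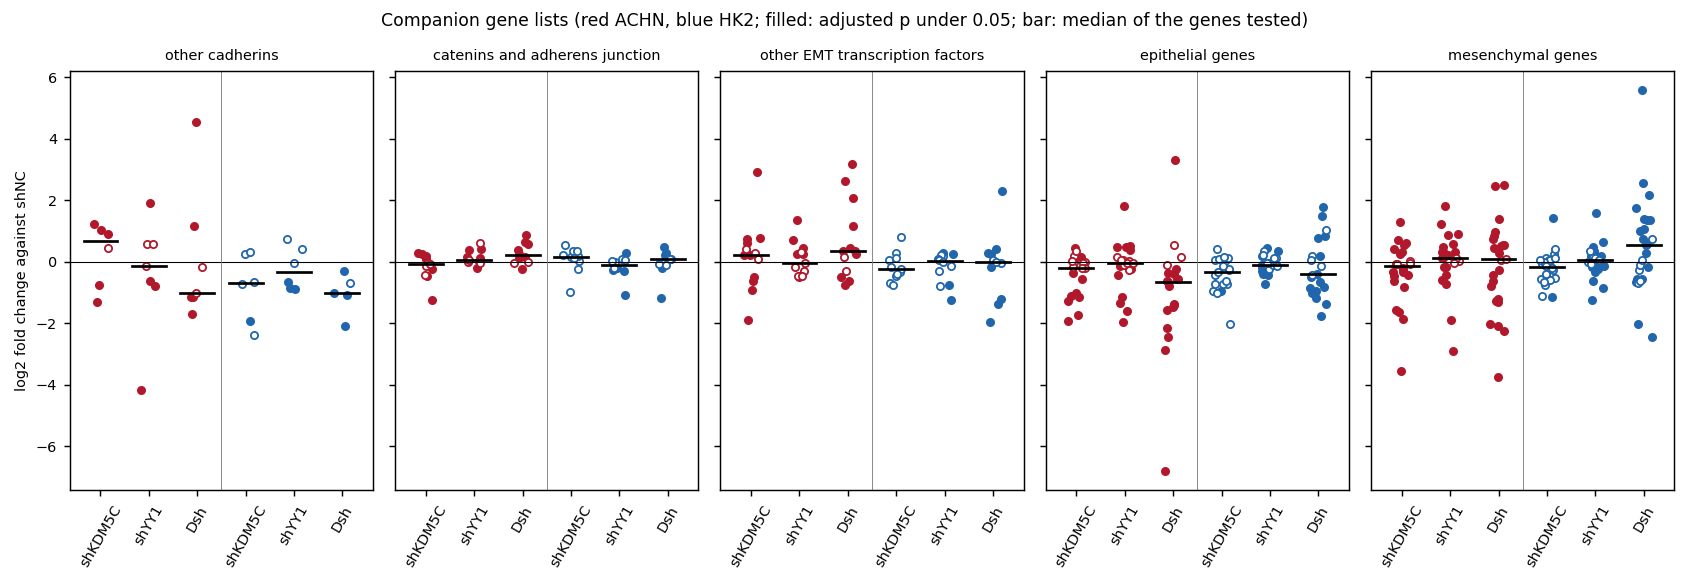
Log2 fold change against shNC of every tested gene of the 5 lists in the 6 knockdown comparisons, with ACHN in red and HK2 in blue; filled points passed an adjusted p of 0.05 and bars are medians. The epithelial genes have their lowest medians in Dsh cells (-0.66 in ACHN and -0.41 in HK2), and the mesenchymal genes spread to both sides of 0.

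Finally, each gene was described by the genes whose level followed it most closely over the 24 libraries, on log2(CPM + 0.5) less the mean of each line, among about 10466 genes with a mean of at least 5 CPM in both lines. The libraries share groups and depth, so the correlations are descriptions only. HK2 shKDM5C replicate 1 was among the 24 libraries, and no correlation was taken without it. Its levels of TWIST1 (5.61 CPM), SNAI1 (2.46 CPM) and CDH6 (1298 CPM) lay outside the range of all other HK2 libraries. Its part in the correlations was not tested. The closest gene to CDH1 was RASGEF1A (Pearson r = 0.916), to CDH2 PSMB2 (0.838), to CDH6 USP28 (0.864), to VIM TMBIM6 (0.965) and to FN1 USP54 (0.944). For the transcription factors they were ACSL4 for ZEB1 (0.949), ELK3 for ZEB2 (0.967), TRMT2A for SNAI1 (0.928), PRKAG2 for SNAI2 (0.914) and TAF1C for TWIST1 (0.950). The value for TWIST1 includes the ACHN libraries, in which TWIST1 was constant at 0, and that for CDH6 includes ACHN libraries with few counts of it. CDH1, CDH6, SNAI2 and TWIST1 were below this level in 1 line and could not be candidates themselves.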

How the data were processed

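RNA-seq was analysed in 24 libraries of ACHN and HK2 cells, grouped by their labels. The deposited values are raw counts per gene. Per the labels and methods, the authors used HISAT2 2.0.5 to align the read pairs to hg38 and counted with featureCounts, version 1.5.0-p3 in the processing notes and 2.0.1 in the file headers, on Ensembl release 84 without strand. The header of ACHN Dsh replicate 2 names replicate 2 as input and in its count column but replicate 1 as output, and its counts differ from those of replicate 1. Gene symbols were matched for 56558 of 60675 genes, and the other 4117 hold 0.243% of the counts. edgeR 4.0.16 in R 4.3.3 was used with TMM factors, its filter on low counts, quasi-likelihood F tests on the libraries of each comparison and Benjamini-Hochberg adjustment over all genes tested (threshold 0.05). SEs came from the F statistic. The interaction and the line differences were contrasts over 12 libraries. DESeq2 1.42.0, other scalings and filters, a replicate block, all 24 libraries in the fit and each library left out were the alternatives. For some of the comparisons the fits were also run on simulated counts in which few genes changed. Many genes were called in most real comparisons, so these runs do not measure error rates in these data. From the lists, up to 2 higher and 2 lower genes per comparison, with the largest changes at a mean of 5 CPM or more, were eligible to be named, and those given were taken from them. The 10 genes and the lists were chosen with earlier results of these data known. Count floors (3 counts) cover counting error only.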

Additional observations from a re-analysis of the deposited data

Results flagged for a closer look

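The effects below differed between the lines by edgeR's test of the difference itself (log2 effect in ACHN less that in HK2), with p-values adjusted over all genes. For shKDM5C these were CDH1 (-4.65, adjusted p = 1.05e-05), CDH2 (0.41, adjusted p = 0.0410) and FN1 (-1.18, adjusted p = 8.06e-06), all of which rest in part on HK2 shKDM5C replicate 1 and were -4.79, 0.52 and -1.14 without it. For shYY1 they were CDH2 (0.19, adjusted p = 0.00556), VIM (-0.29, adjusted p = 9.50e-04), FN1 (-1.45, adjusted p = 3.49e-19) and SNAI2 (-1.54, adjusted p = 9.92e-06). For Dsh they were CDH1 (-1.60, adjusted p = 0.00540), CDH2 (0.19, adjusted p = 0.0105), ZEB1 (-0.45, adjusted p = 0.00165), ZEB2 (-0.31, adjusted p = 0.00791), SNAI1 (-0.65, adjusted p = 0.0126) and SNAI2 (-3.19, adjusted p = 3.21e-10). The Dsh calls of CDH2 were lost without any 1 of the ACHN shNC libraries (adjusted p of 0.0681, 0.0600 and 0.0615), and that of SNAI1 without HK2 Dsh replicate 1 (-0.50, adjusted p = 0.0533).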

How the results depend on the processing

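None of 112 results on single genes of the set changed direction while called under any alternative. The 112 include CDH6 and TWIST1 in the comparisons between the lines, which they entered through HK2 alone. Of them, 28 gained or lost a call when 1 library was left out, 12 under another scaling, filter, tool or the block, and 26 with all 24 libraries in the fit. In that fit SNAI1 lost its call in ACHN shKDM5C (adjusted p = 0.204) and ACHN Dsh (0.340), CDH1, VIM, ZEB2 and SNAI2 in ACHN shYY1 (0.235 to 0.669), VIM in HK2 shYY1 (0.192), CDH6 in HK2 shYY1 (0.198) and HK2 Dsh (0.127), ZEB1, ZEB2 and SNAI1 in the ACHN interaction (0.110, 0.199 and 0.126), CDH2 and VIM in the shYY1 difference between lines (0.152 and 0.193) and CDH2, ZEB1, ZEB2 and SNAI1 in the Dsh difference (0.126, 0.0601, 0.195 and 0.349). The cause was not tested. Numbers of genes called in the set moved by over 1.5 times as follows. With all 24 libraries in the fit they were 2 in ACHN shYY1, 5 in HK2 shKDM5C, 3 in HK2 shYY1, 2 in the ACHN and 4 in the HK2 interaction, and 2 each for the line differences of shYY1 and Dsh. HK2 shKDM5C gave 2 without the filter on low counts, 3 with DESeq2, 5 at unadjusted p and 0 to 5 with 1 library left out. The HK2 interaction gave 4 without the filter, 4 at unadjusted p and 1 to 7 with 1 library left out: 1 without shNC replicate 1 or 3, shYY1 replicate 1 or Dsh replicate 1 or 3, and 7 without shKDM5C replicate 1. With a size of 1.5 or more on the log2 scale required as well, the numbers were 2, 1 and 2 in ACHN shKDM5C, shYY1 and Dsh, 0 and 1 in HK2 shYY1 and Dsh, 1 in each interaction, 5 between the shNC cells, and 1, 1 and 2 for the line differences. The cadherin balance of HK2 Dsh was -8.47 with 5 counts added.

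Same-numbered replicates did not deviate together (correlations of -0.19 to 0.07), so the samples were not paired by number in the main fits. Whether samples of the same number were handled together is not given. With a replicate block the numbers called in the set were 5 in ACHN shYY1 and 2 for the line difference of shKDM5C, and every other number was as without it. Over all genes the block left 0 calls in HK2 shKDM5C in place of 214. All 24 libraries in the fit moved the calls over all genes from 9154 to 4897 in ACHN shKDM5C and from 214 to 3993 in HK2 shKDM5C cells. Low counts limit CDH1 and SNAI2 in HK2 and CDH6 and TWIST1 in ACHN cells.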
